A study of Rattus norvegicus with 4 samples.

Results

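The 7 Schwann cell myelin genes described here were *Prx*, *Drp2*, *Pmp22*, *Pmp2*, *Ncmap*, *Cldn19* and *Egr2*. They were taken by symbol from the 32623 genes of a spatial count matrix of rat trigeminal nerve, where each symbol had 1 row, and all 7 passed the filter on low counts in every test. RNA was captured on 4 Visium areas, in which a tissue section lies on an array of barcoded spots and each spot takes up RNA from a small region that can hold several cells. TN1, TN2 and TN3 are trigeminal neuralgia areas, each with the root, ganglion and proximal branches of the nerve on the compressed side of 1 rat. The single HC area, the healthy control, held nerve tissue of 2 rats that the barcodes do not tell apart. All were wild-type adult male Sprague–Dawley rats without a transgene, and the model was made by compressing the trigeminal root on 1 side only. The series description takes HC from the uncompressed side of 2 TN rats, whereas the methods speak of sham-operated controls, so TN against HC may compare sides of the same animals. HC is 1 sample with no spread of its own, so the effect of the condition and that of the capture area cannot be told apart.

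The areas held between 1256 and 2013 spots under tissue and between 23546025 and 41335930 UMIs (unique molecular identifiers, each marking a captured RNA molecule). The median spot had 9487 UMIs in TN1 and 30808 in TN2, with TN3 (14480) and HC (14616) between them. Of the barcode sequences, 52 occurred in all 4 areas and 1236 in only 1, since every area carries the same printed set. Of 5 sensory neuron markers, 5 of 5 had UMIs in every area, as did 9 of 9 central myelin markers.

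Myelin of peripheral axons is made by Schwann cells, and that of the brainstem side of the trigeminal root by oligodendrocytes. *Egr2*, also called Krox20, is the zinc finger transcription factor that turns on and maintains the Schwann cell myelin program, together with *Sox10* and the Nab co-regulators, and *Jun* is known as its opponent after nerve injury. *Pmp22* and *Pmp2* are proteins of compact myelin, a tetraspan membrane protein and a fatty acid binding protein. *Prx* and *Drp2* form, with dystroglycan, the scaffold that fastens the outer Schwann cell membrane to the basal lamina. *Cldn19* builds tight junctions between the loops of a Schwann cell's own membrane, and *Ncmap* is a protein of non-compact myelin.

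Promoter windows of 250 bases before the RefSeq gene start (build GRCr8) were held for 6 of the 7 genes, *Pmp2* being the gene without one. *Drp2* had 2 windows. They are shown because EGR2 is known to bind GC-rich elements and to control these genes, and *Egr2* had the largest difference between TN and HC of the 7. The motif searched for EGR proteins was GTGGGNG, and that for SOX proteins was ACAANG, each on both strands. Below, in the sense of transcription from 5′ to 3′, the bases in capitals are EGR-type matches. The windows are those of *Prx* (chr1:91914171-91914420, plus strand), *Ncmap* (chr5:152902415-152902664, minus strand), *Cldn19* (chr5:138148325-138148574, plus strand) and *Egr2* (chr20:21054442-21054691, minus strand).
Prx: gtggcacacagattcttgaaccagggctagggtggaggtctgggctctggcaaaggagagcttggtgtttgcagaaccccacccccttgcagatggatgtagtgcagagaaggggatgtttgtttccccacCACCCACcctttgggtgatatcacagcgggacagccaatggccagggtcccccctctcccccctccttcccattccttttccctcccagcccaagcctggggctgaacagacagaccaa
Ncmap: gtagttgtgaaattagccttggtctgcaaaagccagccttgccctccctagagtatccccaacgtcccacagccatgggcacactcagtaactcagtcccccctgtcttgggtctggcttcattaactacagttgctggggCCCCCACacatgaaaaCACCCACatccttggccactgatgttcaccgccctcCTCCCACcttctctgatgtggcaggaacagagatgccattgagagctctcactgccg
Cldn19: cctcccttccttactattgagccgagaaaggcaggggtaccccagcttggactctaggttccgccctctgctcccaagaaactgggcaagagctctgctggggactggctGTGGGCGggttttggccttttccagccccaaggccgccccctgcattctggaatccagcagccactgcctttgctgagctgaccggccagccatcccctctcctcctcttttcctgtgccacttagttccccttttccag
Egr2: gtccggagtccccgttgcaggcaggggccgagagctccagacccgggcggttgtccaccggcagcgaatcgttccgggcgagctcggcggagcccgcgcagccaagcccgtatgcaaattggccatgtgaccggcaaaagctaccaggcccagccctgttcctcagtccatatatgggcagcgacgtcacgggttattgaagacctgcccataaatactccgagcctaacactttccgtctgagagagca
The *Prx* window had 1 match, which began 119 bases before the start. *Cldn19* had 1, beginning 140 bases before it, and *Ncmap* had 3, beginning 109, 93 and 57 bases before it. The second window of *Drp2* also had 1, whereas the windows of *Egr2* and *Pmp22* and the first of *Drp2* had none. In all, 4 of 7 windows held an EGR-type match, beside 25.6% of 33469 windows over all genes. No window of these genes held the SOX-type letters, which occurred in 36.9% of all windows. A match is a description of letters and was not tested as a binding site.

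To see where in the tissue these genes were expressed, spots were grouped by markers of other cells. A spot was called central-rich if it lay in the top 25% of all 6773 spots for the summed central myelin markers and not in the top 25% for the summed sensory neuron markers, and neuron-rich in the opposite case. The spots in the top 25% for neither sum are the remaining spots, and these classes are ranges of a measure, not cell types. TN1 had 798 remaining spots (50.3% of its spots), TN2 had 717 (57.1%), TN3 had 1387 (72.4%) and HC had 491 (24.4%). The HC area held the fewest remaining spots, while 936 of its spots were neuron-rich against 188 to 300 in the TN areas. The cut was shared by all areas, and the 5 sensory neuron markers were lower in every TN area than in HC over all spots. The classes may therefore hold different tissue in TN and HC. Spots high in both sums numbered 0 to 3 in an area and were not used.

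All 7 genes were highest in the remaining spots and lowest in the central-rich spots. In CPM (the UMIs of a gene scaled to a common total per class), *Prx* had levels of 927 (TN1), 613 (TN2), 772 (TN3) and 812 (HC) over the remaining spots. In the central-rich spots of the same areas it stood at 76.3, 94.7, 150.1 and 137 CPM, so that the classes did not overlap. Between these lay the neuron-rich spots, with 307, 299 and 313 CPM in the TN areas and 518 in HC. On the log2 scale, *Prx* was 2.69 ± 0.22 (SE) higher in remaining than in central-rich spots (edgeR quasi-likelihood test with the area as a block, adjusted p = 2.87e-05) and 1.16 ± 0.21 higher than in neuron-rich spots (adjusted p = 0.00324).

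The other members had the same order of class means. *Pmp22* averaged 9395 ± 2797 CPM in remaining spots, 4560 ± 746 in neuron-rich spots and 1544 ± 271 in central-rich spots (SD, n = 4 areas). *Pmp2* averaged 414 ± 119, 160.1 ± 36.2 and 81.5 ± 25.3 CPM in the same classes, and *Cldn19* averaged 197 ± 38.4, 86.9 ± 21.0 and 29.1 ± 7.62 CPM. The order of the classes was thus that of *Prx* in each of these 3 genes. *Drp2*, the partner of *Prx*, averaged 136 ± 40.1, 68.3 ± 8.60 and 27.5 ± 2.82 CPM. *Ncmap* averaged 38.2 ± 13.4, 16.9 ± 3.31 and 3.44 ± 1.47 CPM, and its central-rich value rests on 24, 8, 4 and 24 UMIs in TN1, TN2, TN3 and HC.

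*Egr2* was the member whose classes overlapped between areas. It stood at 82.3, 60.4 and 82.7 CPM in the remaining spots of TN1 to TN3 and at 27.1 in those of HC. In neuron-rich spots it stood at 39.4, 29.0 and 35.0 against 15.3, and in central-rich spots at 9.20, 14.9 and 18.2 against 4.55, on 41, 48, 34 and 29 UMIs. Within each area the order of the classes was that of the other members, and HC was the lowest area in every class.

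**Figure D1:**
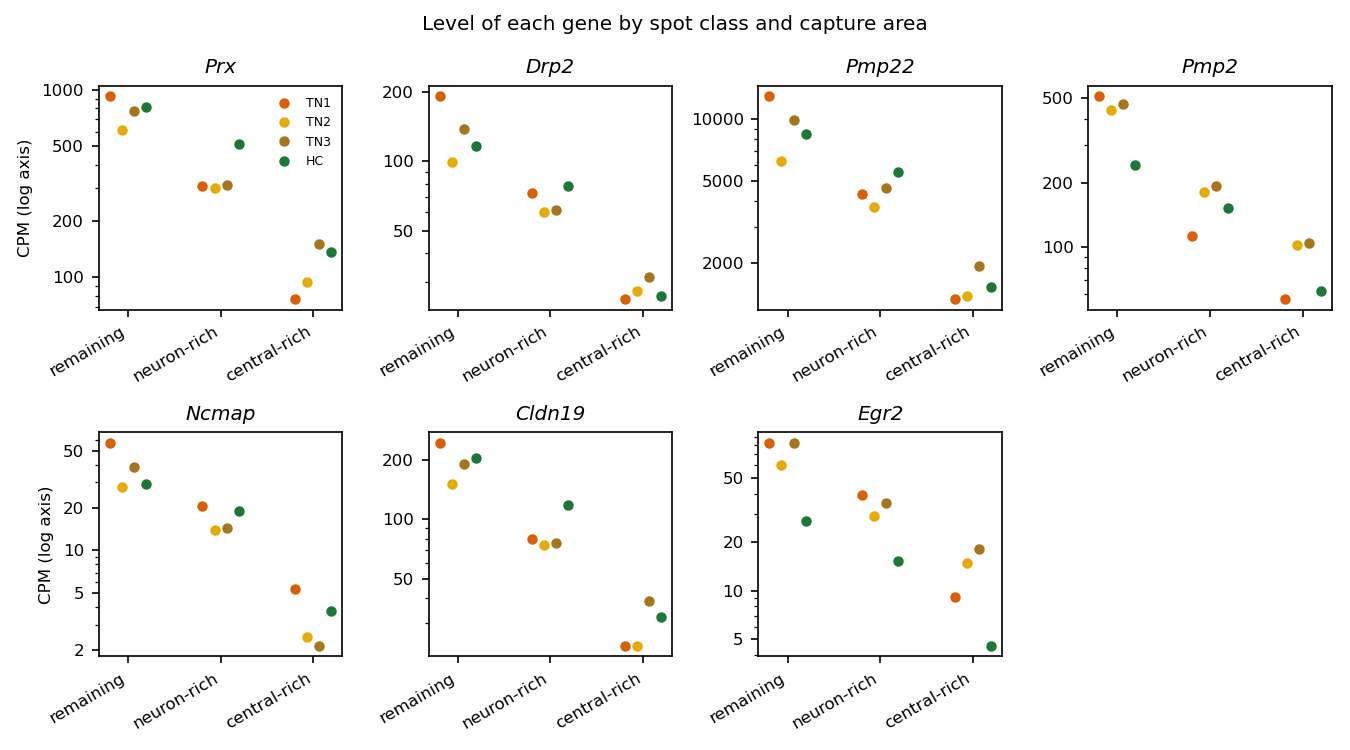
CPM (log axis) of each of the 7 genes in the remaining, neuron-rich and central-rich spots, 1 point for each capture area. The levels descend from left to right in each area, as for *Prx* from between 613 and 927 CPM to between 76.3 and 150.1 CPM, and HC (green) is the lowest point of *Egr2* in every class.

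By the same test, all 7 genes were higher in remaining than in central-rich spots, beside 13.1% of 11896 genes tested that were called higher there and 13.3% that were called lower. All 7 were also higher in remaining than in neuron-rich spots, beside 16.7% of genes called higher and 18.5% called lower. The difference from central-rich spots was 2.19 ± 0.19 on the log2 scale for *Drp2* at the low end and 3.29 ± 0.20 for *Ncmap* at the high end (adjusted p = 2.96e-05 and 1.23e-05), with a median of 2.47 over the 7 genes and 0.05 over all genes. From neuron-rich spots it was 0.97 ± 0.17 for *Drp2* at the low end and 1.37 ± 0.22 for *Pmp2* at the high end (edgeR adjusted p = 0.00267 and 0.0019), with a median of 1.14. In these summed spots, fewer Schwann cells and less RNA per cell cannot be told apart.

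The genes known to work with the members differed more among themselves. Of 9 tested partners of *Prx* and *Drp2*, 8 were higher in remaining than in central-rich spots, with a median log2 difference of 1.20. *Itgb4*, the laminin receptor subunit of the outer membrane, differed by 1.90 ± 0.16, *Lama2*, a laminin chain of the basal lamina, by 1.63 ± 0.26, and *Dag1*, which encodes dystroglycan, by 1.33 ± 0.13. *Itga6*, *Utrn*, *Dmd*, *Ezr* and *Sgce* were the others called higher, while *Sgcb*, a sarcoglycan, was called lower (-0.72 ± 0.14, edgeR adjusted p = 0.00397). Against neuron-rich spots, *Lama2*, *Itga6*, *Ezr*, *Dag1* and *Sgce* were higher, 5 of the 9, with a median of 0.39. Among 7 genes of nodes and junctions, *Gldn*, the Schwann cell ligand that gathers sodium channels at nodes, differed from central-rich spots by 2.82 ± 0.21 and *Cdh1*, an adherens junction cadherin, by 1.66 ± 0.18, whereas *Nfasc* and *Tjp1* were lower and the other 3 were not called. Against neuron-rich spots, 4 of these 7 were higher, *Cadm4* (1.38 ± 0.18) at the high end, and *Nrcam* was lower (-0.35 ± 0.10).

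Of 7 tested regulators of *Egr2* and its partners, 2 were higher in remaining than in central-rich spots. They were *Pou3f1*, which acts upstream of *Egr2* (log2 difference 1.74 ± 0.19), and the EGR co-regulator *Nab2* (1.14 ± 0.19). *Sox10*, which oligodendrocytes also express, differed by 0.04 ± 0.14 and did not pass (edgeR adjusted p = 0.876), and the median of that list was 0.33. Of the axon-to-Schwann signals, the neuregulin receptors *Erbb2* (1.45 ± 0.18) and *Erbb3* (1.39 ± 0.14), their ligand *Nrg1* (1.30 ± 0.30) and the secreted *Lgi4* (0.71 ± 0.14) were called higher, 4 of 5 tested. Of 4 genes that oppose myelination, *Jun* (0.81 ± 0.14) and *Notch1* (0.47 ± 0.12) were higher and *Id2* (-1.20 ± 0.26) was lower. Of 6 genes of non-myelinating Schwann cells, *Ngfr*, *L1cam*, *Gap43* and *Scn7a* were higher, *Ncam1* was lower and *Cdh2* was not called. Against neuron-rich spots, 5 of the 7 regulators (*Pou3f1*, *Zeb2*, *Egr1*, *Sox10* and *Nab2*) were higher and none was lower, *Sox2* and *Id2* of the opposing genes were higher, *Erbb2* and *Erbb3* were higher and *Nrg1* lower, and 4 of 6 non-myelinating genes were lower.

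Genes that both myelins share followed the members against neuron-rich but not against central-rich spots. Of 8 compact and non-compact myelin genes, *Cd9* alone was higher in remaining than in central-rich spots (0.99 ± 0.17), whereas *Mag*, *Mbp*, *Gjb1*, *Ugt8* and *Fa2h* were lower, by -2.48 ± 0.23 for *Mag*, an adhesion molecule of the inner myelin layer. Against neuron-rich spots, all 8 were higher. Other tissue moved with the classes too. Of markers that did not set the classes, 6 of 6 for astrocytes and 3 of 5 for macrophages were lower in remaining than central-rich spots. So were 2 of 2 tested markers listed for satellite glia and 1 of 5 for central neurons, and 5 of 6 for connective tissue were higher. The satellite glia list summed to 478 to 993 CPM in central-rich spots and 136 to 190 CPM in neuron-rich spots. It thus did not single out glia around sensory neurons. Against neuron-rich spots, 6 of 6 connective tissue, 5 of 5 macrophage and 6 of 6 astrocyte markers were higher. So were 6 of 9 blood and bone, 4 of 5 central neuron, 2 of 3 pituitary and 1 of 2 tested satellite glia markers. Their part in the members' differences was not tested.

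Over single spots, the 7 genes varied together. For each area, the Pearson correlation of ln(1 + UMIs per 10000) was taken over its 1256 to 2013 spots. These spots share a library and differ in depth, so the values are descriptions without a test. *Prx* and *Pmp22* were the closest pair (mean r = 0.84 over 4 areas) and *Ncmap* and *Egr2* the farthest (0.35), and the median over all pairs and areas was 0.55. *Pmp22* had the highest median with the other members (0.63), followed by *Prx* (0.62) and *Cldn19* (0.59), and *Egr2* (0.43) and *Ncmap* (0.47), which had the fewest UMIs, had the lowest. Thinning every spot to 2000 UMIs lowered the median over all pairs to 0.19, and within the remaining spots alone it was 0.53. For *Egr2* with *Prx*, r was 0.63, 0.56 and 0.46 in TN1 to TN3 and 0.31 in HC, the area with the fewest *Egr2* UMIs.

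With 9 central myelin genes the members' median r was -0.32, and 25 of 252 values were above 0. The lowest mean was that of *Pmp22* with *Mobp*, an oligodendrocyte myelin protein (-0.61). *Aspa*, the enzyme that splits N-acetylaspartate, stood apart with means of 0.08 to 0.12. Within the remaining spots, which were cut by these central genes, the median with central myelin was -0.23.

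**Figure D2:**
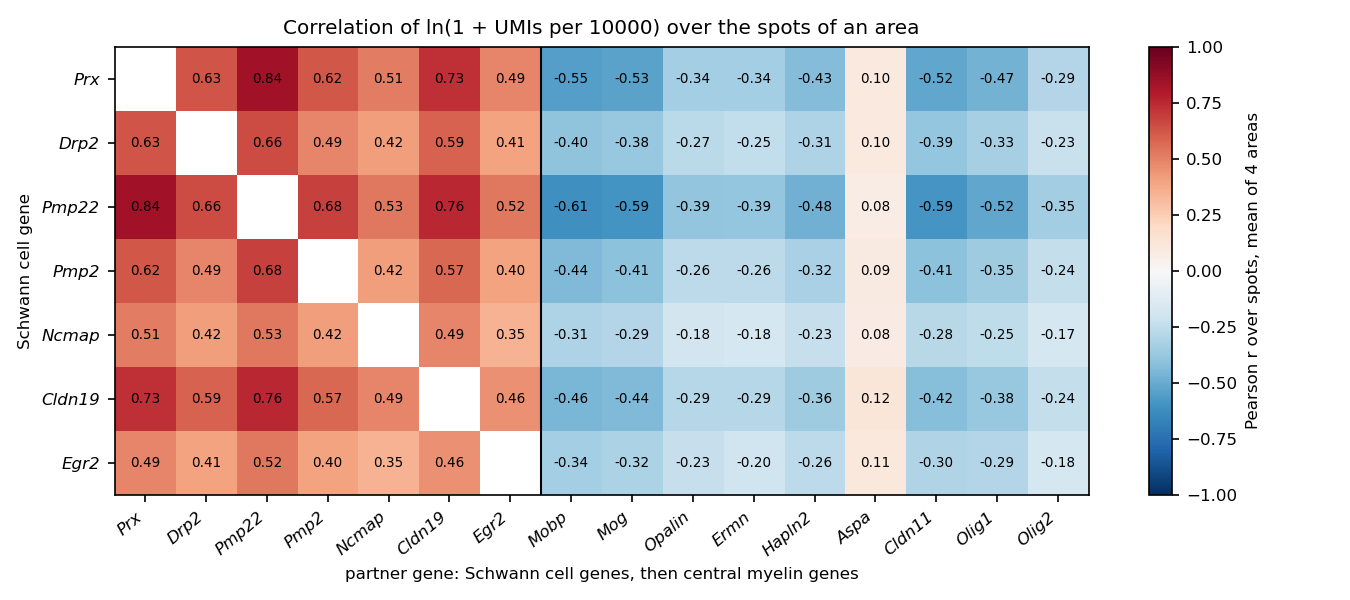
Pearson r over spots, as the mean of 4 areas, of each of the 7 genes (rows) with the other members and with 9 central myelin genes (columns). Red is above 0 and blue below. The block of members is red throughout, from 0.35 for *Ncmap* with *Egr2* to 0.84 for *Prx* with *Pmp22*, and the central myelin block is blue apart from the *Aspa* column.

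Among 7825 genes compared, each with a UMI in 10% or more of the spots of every area, the pattern of the summed members was followed by *S100a6* (mean r = 0.81 over 4 areas), *Egfl8* (0.77), *Cnmd* (0.73), *Fxyd6* (0.72), *S100a4* (0.71), *Sfrp5* (0.71), *Plekha4* (0.70), *Lims2* (0.70), *Myoc* (0.70) and *Dag1* (0.69). *Pmp22* gave most of the UMIs of that sum, so this order is largely its own: the first 3 genes for *Pmp22* alone were the same, with mean r of 0.81, 0.77 and 0.73. *Dag1* is the only one of these 10 that is also on a pathway list here. For single members, *Fxyd6* came first for *Cldn19* (0.65), *Drp2* (0.58), *Ncmap* (0.47) and *Egr2* (0.46), *S100a6* for *Pmp22* (0.81) and *Prx* (0.72), and *Egfl8* for *Pmp2* (0.60). *Cd9* was among the 3 genes most like *Cldn19*, *Ncmap* and *Egr2*, and *Gas2l3* among those most like *Egr2*.

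The comparison of TN with HC asks whether compression of the root changed the expression of these genes. Over all spots of an area, *Egr2* and *Pmp2* had the largest differences of the 7, and neither passed the adjusted threshold. *Egr2* stood at 49.4, 44.1 and 70.7 in TN1 to TN3 and at 16.3 in HC, in CPM with TMM normalization (a scaling that sets most genes equal between areas). Every TN area lay above HC, with a TN mean of 54.7 ± 14.1 (SD, n = 3). The log2 difference, TN minus HC, was 1.75 ± 0.37 (edgeR quasi-likelihood test, adjusted p = 0.556 over 14902 genes).

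*Pmp2* stood at 249.7, 309 and 401 in the TN areas and at 160.4 in HC, again with every TN area above HC. Its log2 difference was 0.996 ± 0.35 (edgeR adjusted p = 0.556). *Ncmap*, at 31.2, 20.1, 32.3 and 19.1 in the same order, also had all TN areas above HC, TN2 by little. Its log2 difference was 0.54 ± 0.35 (edgeR adjusted p = 0.601). Among all genes tested, 28.7% had every TN area above HC, and 3 of these 7 did. Every TN area was below HC for 30.6% of genes and for 0 of the 7.

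*Prx*, *Pmp22*, *Drp2* and *Cldn19* overlapped between the groups. *Prx* stood at 493, 445 and 657 in TN1, TN2 and TN3 and 531 in HC, with a log2 difference of 0.00 ± 0.31. *Pmp22* stood at 6957, 4811 and 8527 against 5633, with 0.26 ± 0.43. In both genes TN2 lay below HC and TN3 above it. *Drp2* stood at 108, 77.0 and 119 against 79.8 (0.34 ± 0.32), and *Cldn19* at 129.6, 109.8 and 162 against 124 (0.10 ± 0.29). The edgeR adjusted p of these 4 genes ran from 0.692 to 0.998.

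None of the 7 genes was called over all spots, and none of the 14902 genes was, 0% in each direction. At an unadjusted p under 0.05, 1271 genes (8.53%) passed, *Egr2* and *Pmp2* among them, and DESeq2 called 144 genes, of which *Egr2* was 1 (log2 difference 1.73, adjusted p = 0.0101). Without TN1, edgeR called more genes, but that fit takes its spread from TN2 and TN3 alone and the genes it called are not named. Its log2 differences were 1.81 for *Egr2* and 1.14 for *Pmp2*.

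**Figure D3:**
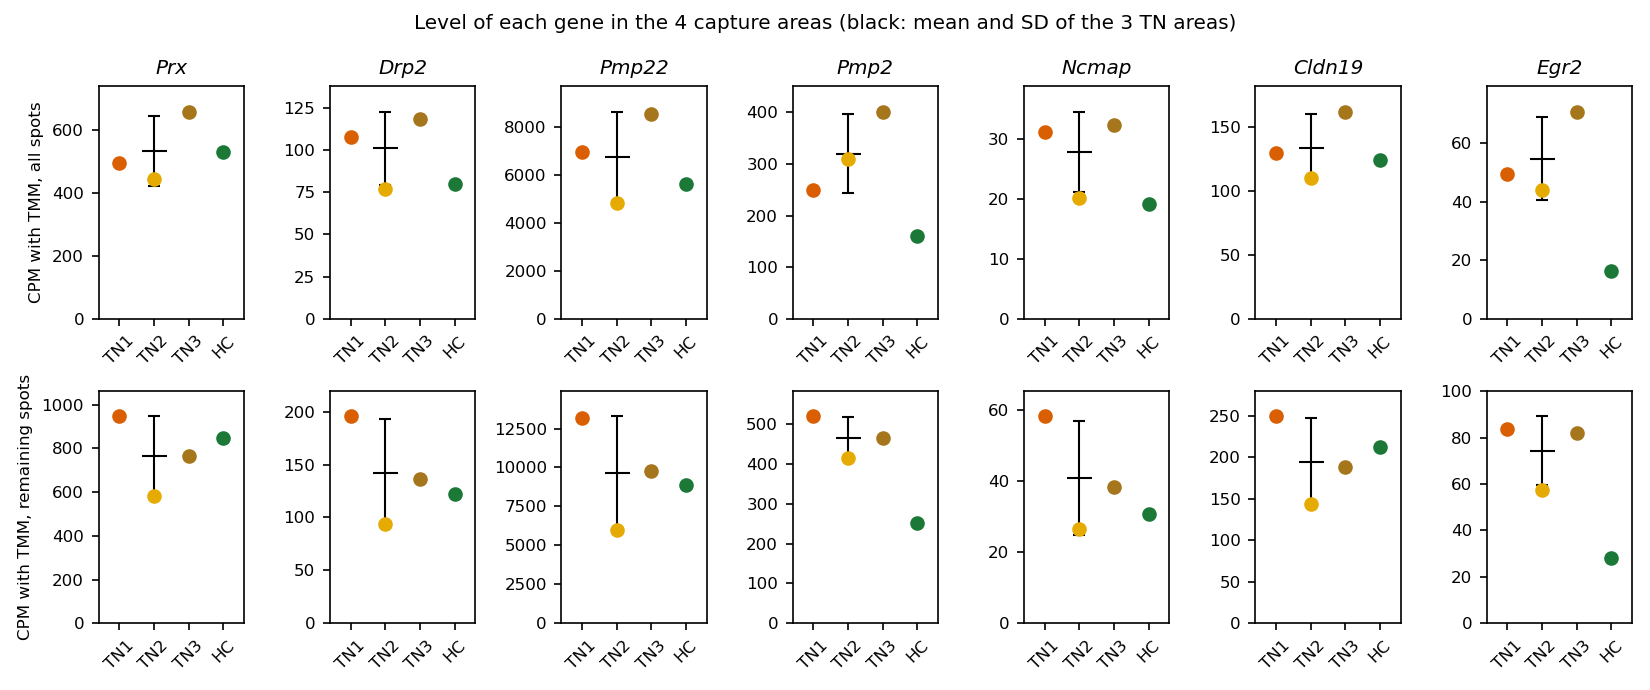
CPM with TMM normalization of each of the 7 genes in TN1, TN2, TN3 and HC, over all spots (top row) and over the remaining spots (bottom row). The black bar is the mean and SD of the 3 TN areas. HC (green) is the lowest point for *Egr2* and *Pmp2* in both rows, at 16.3 and 28.3 for *Egr2*, and lies within or near the TN points for the others.

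In the remaining spots, with the central-rich and neuron-rich spots left out, no member passed either. This class may hold different tissue in TN and HC, since its cut was shared by all areas. In CPM with TMM, *Egr2* stood at 84.0, 57.3 and 81.9 in TN1 to TN3 and at 28.3 in HC. All 3 TN areas lay above HC, and TN2 was nearest to it. The log2 difference was 1.40 ± 0.34 (edgeR adjusted p = 0.473 over 13633 genes). *Pmp2* stood at 519.5, 415 and 465 in the TN areas and 252 in HC, with the same order of groups and a log2 difference of 0.89 ± 0.28 (edgeR adjusted p = 0.473). Only these 2 of the 7 genes had every TN area above HC, beside 32.2% of all genes, and in none was every TN area below, beside 28.9%.

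The other 5 overlapped. *Prx* stood at 946, 582 and 765 against 848 in HC (log2 difference -0.15 ± 0.36), and *Cldn19* at 249.1, 143 and 189 against 212 (-0.13 ± 0.37). In both, TN1 was above HC and TN2 and TN3 below. *Pmp22* stood at 13208, 5959 and 9795 against 8844 (0.13 ± 0.54), *Drp2* at 195.5, 94.2 and 136.5 against 122 (0.22 ± 0.45), and *Ncmap* at 58.2, 26.4 and 38.3 against 30.7 (0.41 ± 0.49). Their edgeR adjusted p ran from 0.745 to 0.936. TN1 was the highest and TN2 the lowest TN area for all 7 genes.

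In the remaining spots edgeR called 0% of genes in each direction, with 1379 genes (10.1%) at an unadjusted p under 0.05, *Egr2* and *Pmp2* among them, and DESeq2 called 166 genes and no member. Without TN1, edgeR again called more genes, on the spread of TN2 and TN3 alone, whereas without TN2 or without TN3 it did not. The log2 differences without TN1 were 1.29 for *Egr2* and 0.80 for *Pmp2*. The log2 difference between remaining and central-rich spots in TN minus HC ran from -0.03 ± 0.49 for *Egr2* to 0.69 ± 0.38 for *Ncmap*, and edgeR called 0 of 11324 genes (1061, or 9.37%, at an unadjusted p under 0.05, and 4 by DESeq2). A difference between the classes was not detectable with these areas.

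The neuron-rich spots, which held most of the members' UMIs in HC, gave other values. The shared cut put 936 HC spots in this class but 188 to 300 of a TN area, so its tissue may differ between the groups. A cut within each area was not run for TN against HC in this class. In CPM over that class, *Prx* stood at 307, 299 and 313 in TN1 to TN3 and at 518 in HC, so that the 3 TN areas lay close together and below HC. Its log2 difference was -0.83 ± 0.14 (edgeR adjusted p = 0.261 over 12799 genes). *Cldn19* stood at 79.1, 74.2 and 76.2 against 118, in the same order, with -0.70 ± 0.15 (edgeR adjusted p = 0.343). *Pmp22*, at 4333, 3734 and 4650 against 5522 (-0.45 ± 0.18), and *Drp2*, at 72.9, 60.5 and 61.6 against 78.1 (-0.33 ± 0.18), also had every TN area below HC, with edgeR adjusted p of 0.406 and 0.494. These 4 of the 7 genes were below HC in every TN area, beside 25.3% of all genes. *Egr2* was the 1 member above HC in every TN area, beside 34.9% of genes, with a log2 difference of 1.10 ± 0.25 (edgeR adjusted p = 0.343), and *Pmp2* (0.02 ± 0.31) and *Ncmap* (-0.29 ± 0.29) overlapped.

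No member was called by edgeR in neuron-rich spots, where it called 0% of genes higher and 0.00781% lower (1 gene, the blood marker *S100a8*). At an unadjusted p under 0.05, 1572 genes (12.3%) passed, among them *Prx*, *Cldn19*, *Pmp22* and *Egr2*. DESeq2 called 197 genes, with *Prx* lower (-0.83 ± 0.19, adjusted p = 0.0017) and *Egr2* higher (1.10 ± 0.32, adjusted p = 0.0366). Without TN1, edgeR called more genes, again on the spread of TN2 and TN3 alone. The log2 differences of that fit were -0.83 for *Prx*, -0.73 for *Cldn19* and 0.98 for *Egr2*. No member was called without TN2 or without TN3. In these spots the summed sensory neuron markers were at 7332 to 7543 CPM in the TN areas and 7272 in HC. This sum set the class, so its similar levels do not show that neuron content was matched. The connective tissue markers were above HC in every TN area for 5 of 6, the macrophage markers for 5 of 5, and the astrocyte markers were below for 5 of 6. Of all genes, 34.9% were above in that way and 25.3% below. The part of these tissues was not tested, and neither was the difference in TN minus HC between neuron-rich and remaining spots.

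In central-rich spots, *Egr2* alone had every TN area above HC (1.52 ± 0.56), beside 23.7% of genes, and no member had every TN area below, beside 15% of genes. There edgeR called 0 of 11270 genes, and 176 (1.56%) passed at an unadjusted p under 0.05.

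**Figure D4:**
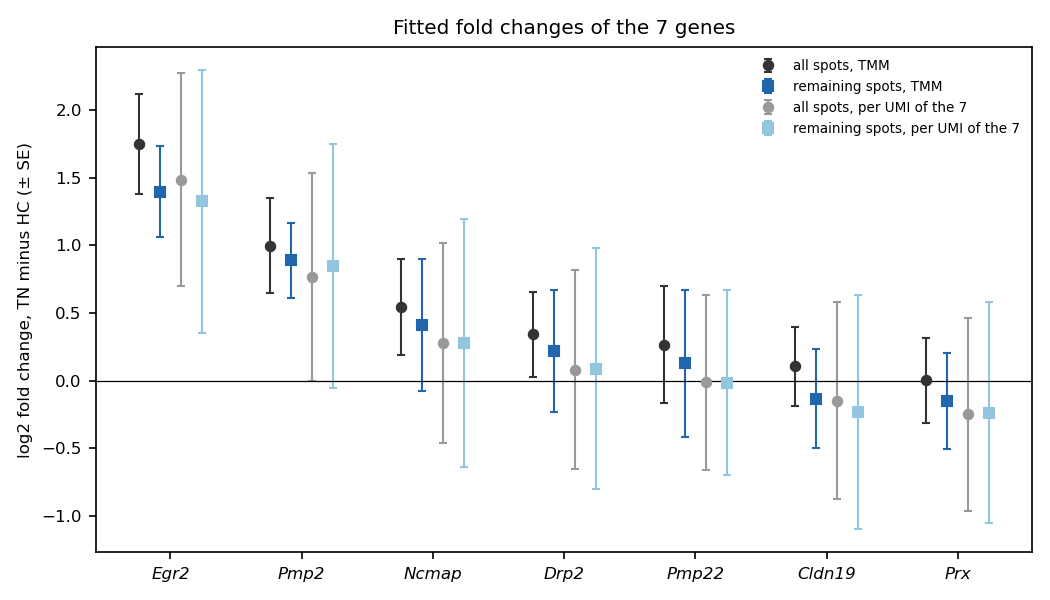
Log2 fold change, TN minus HC, with its SE for each of the 7 genes, over all spots and over the remaining spots, with TMM scaling and with the summed UMIs of the 7 genes in each area as the scale. *Egr2* is highest in all 4 fits, from 1.32 to 1.75, *Pmp2* is next, and *Prx* and *Cldn19* are lowest. No value passed the adjusted threshold of edgeR.

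The make-up of the 7 genes was also set against their own sum instead of all RNA. *Pmp22* gave most of that sum, with 868, 827 and 855 of every 1000 UMIs in TN1 to TN3 and 858 in HC over all spots. *Egr2* gave 6.16, 7.58 and 7.09 of 1000 in the TN areas and 2.48 in HC. The 3 TN areas lay close together, and their mean of 6.95 ± 0.72 (SD, n = 3) was 2.80 times the HC value. *Egr2* was above HC in every TN area in remaining (6.84 ± 1.22 against 2.73), neuron-rich (7.03 ± 0.79 against 2.38) and central-rich spots (7.67 ± 1.52 against 2.54) as well. Over all spots, 13.2% of genes had every TN area above HC on this scale, and in the remaining spots 15.1%. For the neuron-rich and central-rich spots this share of genes was not computed. Such a ratio sets the 7 genes against each other and cannot show which of them differed.

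*Pmp2* had 31.1, 53.1 and 40.2 of 1000 UMIs in the TN areas and 24.4 in HC, and lay above HC in each spot set but the neuron-rich. *Prx* was on the other side, with 61.5, 76.5 and 65.9 against 80.9. *Cldn19* had 16.2, 18.9 and 16.2 against 18.9, TN2 being nearly level with HC. Both *Prx* and *Cldn19* were below HC in every TN area in all 4 spot sets. Over all spots 31.6% of genes were below in that way (20.4% in the remaining spots), and for the neuron-rich and central-rich spots this was not computed. *Ncmap* (3.89, 3.46 and 3.24 against 2.91) was above over all and remaining spots and overlapped in the other classes, and *Drp2* (13.4, 13.2 and 11.9 against 12.2) was above in the remaining spots only. With this scale, edgeR called none of the 7 (*Egr2* differed by 1.49 ± 0.79 on the log2 scale over all spots), and it called 0.429% of genes higher and 0.181% lower over all spots, and 0.103% and 0.161% in the remaining spots.

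**Figure D5:**
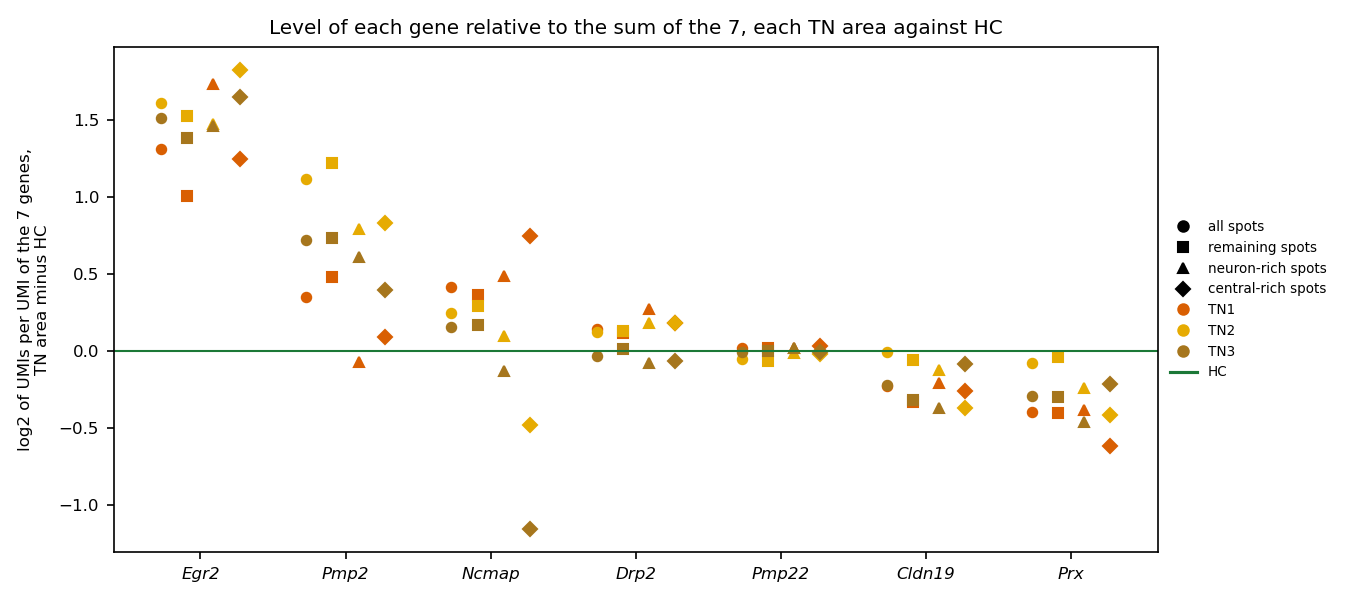
Log2 ratio of each TN area to HC in UMIs per UMI of the 7 genes together, for each of the 7 genes in all spots and in 3 spot classes. Colours are areas and shapes are spot sets. The *Egr2* points all lie above HC, those of *Prx* and *Cldn19* all below, and those of the other 4 genes are on either side.

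Across the areas, the share of the members' transcripts that remaining spots held rose with their share of all UMIs. In HC, 25.6% (*Drp2*) to 29.0% (*Egr2*) of the UMIs of a member came from remaining spots and 66.4% to 70.0% from neuron-rich spots, beside 16.7% and 67.8% of all UMIs. In the TN areas, 62.5% (*Egr2* in TN1) to 91.6% (*Ncmap* in TN3) came from remaining spots, which held 37.9% of all UMIs in TN1, 57.1% in TN2 and 76.3% in TN3. Remaining spots thus gave a larger share of the members' UMIs than of all UMIs in every area, and the shift from HC to TN went with a shift of all UMIs in the same direction. Central-rich spots gave at most 6.27% (*Pmp2* in HC), and they held 15.4% of all UMIs in HC.

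Markers of other cell types moved with the groups, and fewer cells and less RNA per cell cannot be told apart in them. In the remaining spots, the summed CPM of 5 sensory neuron markers was 1735 to 2190 in the TN areas and 3740 in HC. All 5 of 5 were lower in every TN area. This sum also set the class, so its level there is bound by the cut. The sum of 6 connective tissue markers was 3545 to 7280 against 2328, with 5 of 6 above, and that of 5 macrophage markers was 389 to 1278 against 249.8, with 5 of 5 above. For 9 blood and bone markers it was 218 to 906 against 1770, with 8 of 9 below in every TN area. None of these genes was called in the remaining spots, where 32.2% of all genes were above HC in every TN area and 28.9% below. Over all spots the neuron markers were 5 of 5 below HC in every TN area, the connective tissue markers 5 of 6 above, the macrophage markers 5 of 5 above and the blood and bone markers 7 of 9 below. Of all genes, 28.7% were above in that way there and 30.6% below. The part of these tissues in the values of *Egr2* and *Pmp2* was not tested.

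No gene of the 7 pathway lists was called between TN and HC in the remaining spots. The partners of *Prx* and *Drp2* had a median log2 difference of 0.62 beside 0.09 for all genes. Of these partners, 7 of 10 were above HC in every TN area, beside 32.2% of all genes. *Lama2* stood at 100.2, 107 and 104 in the TN areas against 30.4 in HC (1.77 ± 0.24, edgeR adjusted p = 0.473), and the lowest of the list was *Sgcd* (-0.49 ± 0.77), at under 1 CPM in every area. Of 11 regulators, with a median of 0.63, *Pou3f1* stood at 34.8, 80.8 and 92.1 against 19.6 (1.82 ± 0.65, edgeR adjusted p = 0.481), and *Nab1* was lowest (-0.69 ± 0.27). *Pou3f2* and *Tead1*, with no UMI in HC and 1.16 CPM or less in the TN areas, are given no fold, and the median is 0.63 also with them at the bound that 3 counts in HC allow. Of the 4 opposing genes, with a median of 0.95, *Jun* was highest, at 95.1, 247 and 217 against 72.2 (1.37 ± 0.62, edgeR adjusted p = 0.509), and *Id2* lowest (0.57 ± 0.77). So *Jun* and *Egr2*, known as opponents, both had higher values in each TN area than in HC, as had 32.2% of all genes. Neither passed the test.

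The other lists were spread around 0. Compact and non-compact myelin genes had a median of -0.18, between *Mbp* (-1.29 ± 0.47, edgeR adjusted p = 0.482) and *Mal* (0.49 ± 0.62). Over all spots their median was -0.49, and 5 of 8 were below HC in every TN area, beside 30.6% of all genes. Genes of nodes and junctions had a median of -0.07, between *Nfasc*, the adhesion molecule of nodes and paranodes (-0.74 ± 0.40), and *Gldn*, at 104.6, 106 and 108 against 49.0 (1.12 ± 0.23, edgeR adjusted p = 0.473). The axon-to-Schwann signals had 0.28, between *Nrg1* (-0.97 ± 0.47) and *Erbb3* (1.39 ± 0.71, edgeR adjusted p = 0.529). The non-myelinating genes had -0.22, between *Cdh2* (-0.73 ± 0.24, edgeR adjusted p = 0.473) and *Gap43* (0.30 ± 0.45). Over all spots no gene of these lists was called either, and the highest and lowest were *Tead1* (2.04 ± 0.79), at under 1 CPM in every area, and *Mbp* (-1.07 ± 0.40), each with an edgeR adjusted p of 0.556.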

How the data were processed

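RNA of 3 TN areas and 1 HC area was measured with Visium. The authors deposited UMI counts per gene and spot, whole numbers without normalization, which Space Ranger 1.2.0 made with STAR alignment. The build and annotation, and any equalising of depth between areas, are stated in none of the sources used here. The area of a spot was read from its barcode suffix by the series description. The 7 genes, the lists and the tests were chosen with earlier results of these data known. Spots are not replicates, so UMIs were summed per area, or per area and spot class, and tested over all genes with edgeR 4.0.16 (R 4.3.3, TMM, filterByExpr, quasi-likelihood F test, Benjamini-Hochberg adjustment at 0.05), in place of the spot-wise test of the study. The design left 2 residual degrees of freedom in TN against HC. Separate animals gave the TN areas. A class sum needed at least 20 spots. The top 25% lay above 2033 CPM for the central myelin and 4934 for the sensory neuron markers. Named were the 7 genes, listed genes past the threshold, the highest and lowest of each pathway list, and the genes most like the members. Alternatives were DESeq2 1.42.0 and its size factors, no filter, each TN area left out, omission of 118 mitochondrial, ribosomal protein and hemoglobin genes, a minimum of 500 genes and 1000 UMIs per spot, the top 25% within areas, the top 10%, thinning and Spearman's rho. Some genes, and the spot classes first planned from 1 of them, are not reported here. The classes used instead, their tests and alternatives, correlations within remaining spots and the summed UMIs of the 7 genes as the scale, and the fits in neuron-rich and central-rich spots, were added with the data already seen. The edgeR fits were tested on simulated data. No doublet caller was used on spots.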

Additional observations from a re-analysis of the deposited data

How the results depend on the processing

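The 7 genes kept their direction and their calls in remaining against central-rich and against neuron-rich spots under every alternative run (77 of 77 values in each contrast). The number of all genes called there, 3140 and 4186, ran from 1699 (without TN3) to 3311 and from 1748 (without TN2) to 4080 with 1 area left out. For TN minus HC, DESeq2 called 1 member and 144 genes over all spots (80.6% higher) and 166 genes in the remaining spots (53.6% higher), and the summed UMIs of the 7 genes as the scale gave 91 and 36 genes. With 1 TN area left out, the members called higher ran from 0 to 2 in both spot sets, and the genes from 0 to 2171 over all spots and from 0 to 2983 in the remaining spots. Neuron-rich spots in place of remaining ones gave 1 gene, and there DESeq2 gave 197, no filter 40 and 1 TN area left out 0 to 1497. The difference between classes gave 4 genes by DESeq2, 13 with no filter and 0 to 1 with 1 area left out. Thinning moved the median r among members from 0.55 to 0.19 and with central myelin from -0.32 to -0.11, and remaining spots alone gave -0.23 with central myelin. No filter raised the median log2 difference of all genes in the remaining spots from 0.09 to 0.23, and the sum of the 7 genes as the scale moved it over all spots from 0.06 to -0.14. The cause of these shifts was not tested.

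Some log2 differences near 0 changed sign. Over all spots, *Prx* went to -0.0185 with DESeq2 and with its size factors, and ran from -0.16 without TN3 to 0.13 without TN2, and *Cldn19* from -0.0377 without TN3 to 0.24 without TN2. With the sum of the 7 genes as the scale, *Prx* went to -0.25, *Pmp22* to -0.0137 and *Cldn19* to -0.15. In the remaining spots with 1 TN area left out, *Drp2* ran from -0.0888 to 0.44, *Pmp22* from -0.17 to 0.38, *Prx* from -0.34 to 0.0136 and *Cldn19* from -0.36 to 0.0433, each lowest without TN1 and highest without TN2. The top 25% within areas gave *Prx* 0.12 and *Cldn19* 0.21, and the sum of the 7 genes as the scale gave *Pmp22* -0.0159. In central-rich spots *Pmp22* was -0.0606 and *Ncmap* -0.19, and in neuron-rich spots *Drp2* was -0.33, *Pmp22* -0.45 and *Ncmap* -0.29, beside *Prx* at -0.83 and *Cldn19* at -0.70, which were also below 0 in remaining spots. *Pmp2* there ran from -0.10 without TN3 to 0.22 without TN1. For the difference between classes, with 1 TN area left out, *Drp2* ran from -0.0904 to 0.44, *Pmp22* from -0.12 to 0.39, *Cldn19* from -0.0602 to 0.54 and *Egr2* from -0.38 to 0.18, each lowest without TN1. There *Egr2* was 0.0349 with no filter, 0.28 with the top 25% within areas and 0.0973 with the top 10%, and the top 10% gave *Drp2* -0.30 and *Ncmap* -0.0809.

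No paired analysis was possible because HC is 1 area that pools rats which the barcodes do not tell apart. Which TN rats these were, if any, is not given. HC is 1 area, so its value cannot be checked by leaving it out, and 491 remaining spots stand behind it.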
